A study of Mus musculus with 6 samples.

Results

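The lipid handling genes examined were 10 genes listed by name: Pparg, the fatty acid receptor gene, and 9 genes of lipid uptake and storage (Fabp4, Fabp5, Cd36, Lpl, Plin2, Cidec, Lipa, Pnpla2 and Olr1). All 10 were among the 16840 gene symbols of the count table, and all 10 passed the filter on low counts that left 12340 genes for testing. RNA sequencing had been done on cultured wild-type (WT) mouse alveolar macrophages at day 2, in 3 groups of 2 libraries: GM-CSF with DON, GM-CSF alone, and no GM-CSF. GM-CSF (granulocyte-macrophage colony-stimulating factor) is the cytokine on which these cells depend in the lung, and DON is named in the labels by this abbreviation only. The sample labels carry a cell line entry, AM, and do not state whether cells were taken fresh from mice. Nothing says that the 2 libraries of a group came from different cultures or animals, and the spread that p-values are set against may therefore be technical.

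PPARg is a nuclear receptor that pairs with RXR, is activated by fatty acids and their derivatives, and switches on genes of lipid uptake, binding and storage. In alveolar macrophages GM-CSF signalling and PPARg are needed for the cells to mature and to clear surfactant lipid, and cells that lack either fill with lipid droplets. Lipid enters through receptors such as CD36, is carried in the cytosol by fatty acid binding proteins, is stored in droplets coated by perilipins, and is released by a cytosolic lipase at the droplet surface or by an acid lipase in the lysosome.

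Library totals ran from 28321986 to 35196387 counts, with a count for between 14892 and 15188 genes. Values are CPM (counts scaled to library size) on TMM-scaled libraries, as single libraries or as mean ± SD (n = 2). Log2 fold changes are given ± SE, and a gene is called, and said to have risen or fallen, where its adjusted p in edgeR's quasi-likelihood test was under 0.05 over all 12340 genes. The summed level of 15 alveolar macrophage markers was 20521 to 20560.0 CPM with GM-CSF and DON, 17346 to 17376 CPM with GM-CSF and 11614 to 12122 CPM without GM-CSF. Of these 15, 6 rose and 6 fell with GM-CSF, and 5 rose and 6 fell with DON added. The 6 that fell with GM-CSF were Siglec5, Marco, Krt79, Il18, Atp6v0d2 and Cd9. Chi3l3 was the highest of the 15 with GM-CSF and DON (7702 CPM) and with GM-CSF (5543 CPM). Without GM-CSF it was at 1814 CPM, and Itgax was the highest there (3028 CPM). Car4 had only 7 and 8 counts in the libraries without GM-CSF, at mean levels of 314 CPM with GM-CSF and DON, 656 CPM with GM-CSF and 0.226 CPM without GM-CSF. Fat cells and endothelial cells also use several of these lipid genes. Of 8 adipocyte markers 4 were in the table, and their summed level was 1.72 to 2.27 CPM with GM-CSF and DON, 1.67 to 1.75 CPM with GM-CSF and 4.86 to 5.59 CPM without GM-CSF. The highest of them in each group was Lipe, which is also in the lipolysis list below. Lipe and Slc2a4, the 2 that were tested, fell with GM-CSF. Plin1, the perilipin of fat cells, had 2 counts in GM-CSF replicate 2 and 0 counts in each of the other libraries. Of 8 endothelial markers 4 were in the table, and their sum was 0.734 to 1.04 CPM with GM-CSF and DON, 1.497 to 1.61 CPM with GM-CSF and 0.0922 to 0.119 CPM without GM-CSF. Its leading gene, Cdh5, rose with GM-CSF (adjusted p = 3.47e-05) and fell with DON (adjusted p = 0.022). Of 10 lung epithelium markers 8 were in the table, with a sum of 105 to 109 CPM with GM-CSF and DON, 165 to 171 CPM with GM-CSF and 102 to 116 CPM without GM-CSF. That sum was mostly Abca3 and Cdh1, and Cdh1 was at 25.6 CPM with GM-CSF and DON, 98.0 CPM with GM-CSF and 13.8 CPM without GM-CSF. The defining surfactant gene Sftpc had at most 1 count in any library, while Scgb1a1 and Epcam, at mean levels of at most 1.81 CPM, fell with GM-CSF. Granulocyte markers, 2 of 6 in the table (S100a8 and Csf3r), summed to 3.84 to 4.86 CPM with GM-CSF and DON, 4.26 to 4.93 CPM with GM-CSF and 30.4 to 32.7 CPM without GM-CSF. The part of these marker lists in the results was not tested.

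With GM-CSF, against no GM-CSF, 8 of the 10 genes fell and 0 rose, where 56.8% of all tested genes were called, 29.3% lower and 27.5% higher. The median log2 fold change of the 10 was -0.64, and that of all tested genes was -0.018. With DON added to GM-CSF, against GM-CSF alone, 9 of the 10 rose and 1, Lpl, fell, where 57.6% of all tested genes were called, 28.8% higher and 28.8% lower. The median was 0.48 for the 10 and 0.010 for all tested genes. In cells with GM-CSF and DON, set against cells without GM-CSF, 2 of the 10 rose (Cd36 and Olr1), 5 fell (Lpl, Fabp4, Lipa, Fabp5 and Plin2) and 3 were not called (Pparg, Pnpla2 and Cidec), where 55.6% of all tested genes were called, 27.2% higher and 28.4% lower. The median was -0.10 for the 10 and 0.009 for all tested genes. Each pair of these comparisons shares 2 libraries (GM-CSF alone in the first and second), so their signs are not separate observations. In bulk RNA, fewer cells that express a gene and less RNA per cell cannot be told apart.

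**Figure D1:**
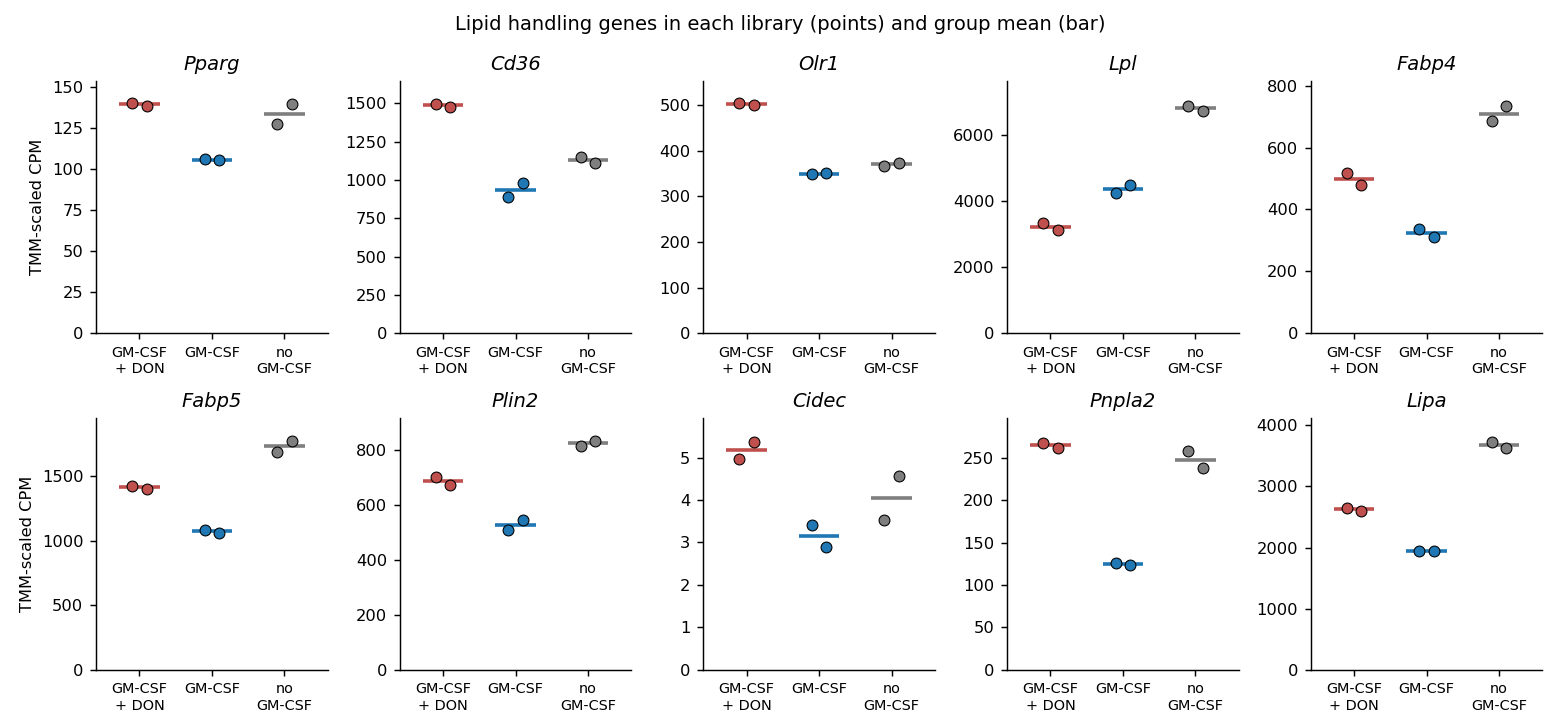
TMM-scaled CPM (linear axis from 0) of each of the 10 lipid handling genes, with a point for each library and a bar for the mean of each group. Lpl was lower in GM-CSF with DON than in GM-CSF, and each of the other 9 genes was higher in both libraries with DON than in both with GM-CSF alone.

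Pparg, on chromosome 6 from 115360951 to 115490399 on the plus strand (GRCm38, protein coding), was measured at 141 and 139 CPM with GM-CSF and DON, 106 and 105 CPM with GM-CSF, and 128 and 139 CPM without GM-CSF. Both GM-CSF libraries were below all 4 others, while the groups with DON and without GM-CSF overlapped. The mean was 106 ± 0.661 CPM with GM-CSF and 134 ± 8.32 CPM without it, a fold of 0.792 (log2 fold change -0.34 ± 0.052, adjusted p = 3.18e-04). With DON it was 139.7 ± 1.30 CPM, 1.32 times the level with GM-CSF alone (log2 fold change 0.40 ± 0.052, adjusted p = 1.02e-04). Between GM-CSF with DON and no GM-CSF the log2 fold change was 0.064 ± 0.051 (adjusted p = 0.314), so the order of levels had GM-CSF alone lowest and the other 2 groups not told apart by the test.

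Promoter windows, 250 bases before to 50 bases after a transcription start, were available from RefSeq (GRCm38) for 7 of the 10 genes, 10 windows in all, since Pparg has 3 and Cidec 2. They were searched on both strands for AGGTCA, the hexamer bound by PPAR and other nuclear receptors, for GAGGAA, a core of PU.1 sites, and for CACGTG, an E-box. They were also searched for TTCNNNGAA (STAT factors), GTAAACA (FOXO factors) and direct repeats of AGGTCA with 1 base between (PPAR with RXR) or 4 bases between (LXR with RXR). AGGTCA was in 5 of the 10 windows, belonging to 4 genes. It was in 16.3% of all 32851 windows of the genome and in 12.6% of the 10903 windows of tested genes. GAGGAA was in 3 of the 10, against 28.3% of all windows and 27.0% of those of tested genes. CACGTG was in 1, against 7.15% and 10.1%. The remaining patterns were in none of the 10. Of all windows they were in 8.30% (STAT), 3.65% (FOXO), 0.0400% (repeat with 1 base) and 0.0150% (repeat with 4 bases). Of windows of tested genes they were in 6.88%, 2.41%, 0.028% and 0.009%, in the same order. A match is a description of the letters and not a binding site. The 4 windows printed here, 1 for each gene with an AGGTCA match, show where the match lies. All 7 genes with a window rose with DON, also Cidec, Lipa and Pnpla2, whose windows hold no AGGTCA. No window was available for Fabp4, Fabp5 or Lpl, and Lpl alone of the 10 genes fell with DON. Direction therefore cannot be compared between windows with and without the hexamer, and a link to the response was not tested. Pparg has a second window with AGGTCA farther upstream. In the printed windows capitals mark the letters matched, and base 251 is the transcription start.

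The Pparg window (chr6:115362099-115362398, plus strand) holds GAGGAA at bases 11 to 16 and AGGTCA at bases 242 to 247.
Pparg: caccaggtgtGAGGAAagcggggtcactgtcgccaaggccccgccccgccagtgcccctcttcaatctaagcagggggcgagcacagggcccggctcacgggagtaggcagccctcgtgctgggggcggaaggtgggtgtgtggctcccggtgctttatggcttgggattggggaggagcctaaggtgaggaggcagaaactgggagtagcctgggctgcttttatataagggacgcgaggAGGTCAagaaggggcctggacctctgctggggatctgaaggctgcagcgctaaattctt
The Cd36 window (chr5:17835847-17836146, minus strand) holds the hexamer on the opposite strand, read as TGACCT, at bases 23 to 28. It lies within the span of the gene (17781690 to 17888801) and not at its upstream end. Whether these cells use that start was not tested.
Cd36: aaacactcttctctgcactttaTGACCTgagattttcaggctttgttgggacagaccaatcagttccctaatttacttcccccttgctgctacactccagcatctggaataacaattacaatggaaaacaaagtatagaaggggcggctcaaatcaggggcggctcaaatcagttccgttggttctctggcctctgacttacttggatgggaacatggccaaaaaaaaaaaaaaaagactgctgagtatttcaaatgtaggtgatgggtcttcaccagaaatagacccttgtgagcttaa
The Olr1 window (chr6:129507116-129507415, minus strand) holds the hexamer at bases 76 to 81 and the PU.1 letters on the opposite strand at bases 175 to 180.
Olr1: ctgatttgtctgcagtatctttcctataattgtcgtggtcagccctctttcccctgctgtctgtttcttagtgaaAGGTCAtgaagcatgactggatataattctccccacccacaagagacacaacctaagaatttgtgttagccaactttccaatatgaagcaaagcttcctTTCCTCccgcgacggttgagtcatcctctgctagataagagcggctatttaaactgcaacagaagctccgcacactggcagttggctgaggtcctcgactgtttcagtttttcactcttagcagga
The Plin2 window (chr4:86670010-86670309, minus strand) holds the hexamer on the opposite strand at bases 33 to 38 and the E-box at bases 247 to 252, across the transcription start.
Plin2: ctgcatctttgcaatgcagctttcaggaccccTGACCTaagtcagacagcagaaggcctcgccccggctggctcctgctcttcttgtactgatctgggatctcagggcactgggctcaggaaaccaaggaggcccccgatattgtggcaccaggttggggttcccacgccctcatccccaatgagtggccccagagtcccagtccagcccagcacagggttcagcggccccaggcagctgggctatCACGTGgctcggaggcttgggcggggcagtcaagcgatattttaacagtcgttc

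Of the receptors, Cd36 encodes a scavenger receptor that takes up long-chain fatty acids and oxidised lipoproteins. It lies on chromosome 5 from 17781690 to 17888801 on the minus strand and was at 1495 and 1480.0 CPM with GM-CSF and DON, 889 and 979.5 CPM with GM-CSF, and 1152 and 1108 CPM without GM-CSF. The 3 groups did not overlap, and the libraries with DON were highest. With GM-CSF alone it fell by 0.27 on the log2 scale (SE 0.048, adjusted p = 7.17e-04), to 934 ± 63.8 CPM, against 1130.3 ± 31.1 CPM without GM-CSF. With DON it reached 1487 ± 10.3 CPM, a log2 fold change of 0.67 ± 0.048 over GM-CSF alone (adjusted p = 1.91e-06) and of 0.40 ± 0.048 over no GM-CSF (adjusted p = 6.22e-05).

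Olr1 encodes LOX-1, a receptor for oxidised low-density lipoprotein, on chromosome 6 from 129485244 to 129507165 on the minus strand. It was at 505 and 500.4 CPM with GM-CSF and DON, 349 and 351 CPM with GM-CSF, and 368 and 374 CPM without GM-CSF. The libraries with DON stood above all 4 others, whose values lay close together. Olr1 rose with DON by 0.52 ± 0.037 over GM-CSF alone on the log2 scale (adjusted p = 1.81e-06) and by 0.44 ± 0.037 over no GM-CSF (adjusted p = 4.46e-06). With GM-CSF alone Olr1 was at 350.1 ± 0.949 CPM, against 371 ± 3.98 CPM without GM-CSF. The log2 fold change of -0.083 ± 0.037 was not called (adjusted p = 0.0813), though it was called lower with upper quartile scaling (-0.11, adjusted p = 0.0354). That scaling moved the median of all tested genes in this comparison from -0.018 to -0.050.

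Lpl encodes lipoprotein lipase, a secreted enzyme that frees fatty acids from the triacylglycerol of lipoproteins. It lies on chromosome 8 from 68880491 to 68907448 on the plus strand and was the most counted of the 10 genes in every library, at 3336 and 3105 CPM with GM-CSF and DON, 4234 and 4488 CPM with GM-CSF, and 6876 and 6730.4 CPM without GM-CSF. The 3 groups did not overlap. Their order was GM-CSF with DON, then GM-CSF, then no GM-CSF from low to high. Lpl took 0.327 ± 0.0133% of all counts with GM-CSF and DON, 0.451 ± 0.0191% with GM-CSF and 0.647 ± 0.00449% without GM-CSF. It fell with GM-CSF to 4361 ± 179.9 CPM, against 6803 ± 103 CPM without GM-CSF (log2 fold change -0.64 ± 0.043, adjusted p = 9.28e-07). With DON it fell further, to 3221 ± 163 CPM (log2 fold change -0.44 ± 0.043 against GM-CSF alone, adjusted p = 1.73e-05). It was at 0.473 times the level without GM-CSF (-1.08 ± 0.044 on the log2 scale, adjusted p = 2.47e-08), the lowest log2 fold change of the 10 genes in that comparison.

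The cytosolic fatty acid binding proteins carry fatty acids within the cell, and the genes of both members measured here are on chromosome 3. Fabp4 lies from 10204088 to 10208576 on the minus strand and Fabp5 from 10012548 to 10016607 on the plus strand. Fabp4 was at 518 and 479 CPM with GM-CSF and DON, 335 and 309.5 CPM with GM-CSF, and 686 and 733 CPM without GM-CSF. The groups did not overlap, and GM-CSF alone was lowest. The fold with GM-CSF was 0.454 (log2 fold change -1.14 ± 0.056, adjusted p = 9.66e-08), at 322 ± 18.1 CPM, against 709.7 ± 33.6 CPM without it. This was the lowest log2 fold change of the 10 genes in that comparison. With DON Fabp4 was at 499 ± 27.5 CPM, 0.63 ± 0.056 above GM-CSF alone on the log2 scale (adjusted p = 8.25e-06), while the log2 fold change against no GM-CSF was -0.51 ± 0.055 (adjusted p = 3.00e-05).

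Fabp5 was at 1424 and 1402 CPM with GM-CSF and DON, 1087 and 1057 CPM with GM-CSF, and 1689 and 1773 CPM without GM-CSF. Its groups stood in the same order as those of Fabp4, again without overlap. The changes were smaller, with log2 fold changes of -0.69 ± 0.038 for GM-CSF (adjusted p = 2.15e-07), 0.40 ± 0.038 for DON added to GM-CSF (adjusted p = 1.33e-05) and -0.29 ± 0.038 for GM-CSF plus DON against no GM-CSF (adjusted p = 1.02e-04). The Fabp5 transcript aligns at between 93.6% and 98.3% identity with transcripts of 5 processed pseudogenes, so its counts are uncertain to the extent that reads were shared or discarded. The count table held 2 of these, Gm6166 with 2 to 14 counts and Gm14328 with 1 to 3 counts per library. The ratio of Fabp4 to Fabp5, each as FPKM (values the authors scaled by gene length and library depth), was 0.609 and 0.578 with GM-CSF and DON, 0.520 and 0.494 with GM-CSF and 0.682 and 0.697 without GM-CSF. The 3 groups did not overlap in this ratio. Between 2 groups of 2 libraries an exact permutation test cannot reach 0.05, and the ratio was not tested.

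Among the droplet genes, Plin2 encodes perilipin 2, the coat protein of lipid droplets in most cells other than fat cells, on chromosome 4 from 86648386 to 86670060 on the minus strand. It was at 701 and 669.9 CPM with GM-CSF and DON, 506 and 544 CPM with GM-CSF, and 815 and 831 CPM without GM-CSF. The groups did not overlap, with GM-CSF alone lowest and no GM-CSF highest. Plin2 was at 525 ± 26.8 CPM with GM-CSF, against 823 ± 11.9 CPM without it, a log2 fold change of -0.65 ± 0.045 (adjusted p = 1.17e-06). With DON it was at 686 ± 22.2 CPM, with log2 fold changes of 0.38 ± 0.045 against GM-CSF alone (adjusted p = 5.45e-05) and -0.26 ± 0.045 against no GM-CSF (adjusted p = 6.89e-04). A stretch of its transcript matches the pseudogene Gm12551 at 96.1% identity, which had 2 counts in no GM-CSF replicate 1 and 0 counts elsewhere.

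Cidec, on chromosome 6 from 113424634 to 113435760 on the minus strand, encodes a protein that lets droplets fuse and grow, best known from fat cells. It was the least counted of the 10, with 86 to 175 counts per library, where the other 9 had at least 3137. Cidec was at 4.97 and 5.38 CPM with GM-CSF and DON, 3.40 and 2.89 CPM with GM-CSF, and 3.54 and 4.58 CPM without GM-CSF. Both libraries with DON were above all 4 others, and the libraries without GM-CSF differed more from each other than those of either other group. It rose with DON to 5.17 ± 0.290 CPM, against 3.15 ± 0.365 CPM with GM-CSF alone (log2 fold change 0.71 ± 0.17, adjusted p = 0.00489). That call was lost with limma on the FPKM values (0.63, adjusted p = 0.0707). Against no GM-CSF, at 4.06 ± 0.735 CPM, neither GM-CSF alone (-0.36 ± 0.17, adjusted p = 0.101) nor GM-CSF with DON (0.35 ± 0.16, adjusted p = 0.0966) was called. With replicate 1 of the no GM-CSF group left out, GM-CSF was called lower (-0.54, adjusted p = 0.033), and with its replicate 2 left out, GM-CSF plus DON was called higher (0.55, adjusted p = 0.0314).

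Of the lipases, Pnpla2 encodes adipose triglyceride lipase, which takes the first fatty acid from triacylglycerol at the droplet surface. It lies on chromosome 7 from 141455198 to 141460743 on the plus strand and was at 268 and 263 CPM with GM-CSF and DON, 126 and 124 CPM with GM-CSF, and 258 and 238 CPM without GM-CSF. The GM-CSF libraries stood far below the other 4, and the libraries with DON lay just above those without GM-CSF. Pnpla2 fell with GM-CSF to 125 ± 1.42 CPM, against 248 ± 14.2 CPM without it, a fold of 0.504 (log2 fold change -0.99 ± 0.049, adjusted p = 1.01e-07). With DON it was at 266 ± 4.17 CPM, 2.12 times the level with GM-CSF alone (log2 fold change 1.09 ± 0.049, adjusted p = 1.27e-07), the highest log2 fold change of the 10 genes in that comparison. Against no GM-CSF the log2 fold change of 0.097 ± 0.048 was not called (adjusted p = 0.111). It was called once replicate 1 of the no GM-CSF group was left out (0.16) and with upper quartile scaling (0.14, adjusted p = 0.0241). That scaling moved the median of all tested genes in this comparison from 0.009 to 0.052.

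Lipa encodes lysosomal acid lipase, which splits cholesteryl esters and triacylglycerol taken into the lysosome, on chromosome 19 from 34492318 to 34527474 on the minus strand. It was at 2655 and 2602 CPM with GM-CSF and DON, 1951 and 1936 CPM with GM-CSF, and 3730.2 and 3634 CPM without GM-CSF. The groups did not overlap, and their order was that of Fabp4, Fabp5 and Plin2. Lipa was at 1944 ± 10.9 CPM with GM-CSF, against 3682 ± 67.7 CPM without it (log2 fold change -0.92 ± 0.034, adjusted p = 1.14e-08). With DON it was at 2629 ± 37.6 CPM, with log2 fold changes of 0.44 ± 0.033 against GM-CSF alone (adjusted p = 3.00e-06) and -0.49 ± 0.033 against no GM-CSF (adjusted p = 1.02e-06). Its promoter window holds GAGGAA at bases 2 to 7 and 68 to 73, and the Pnpla2 and Cidec windows hold none of the letters searched.

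**Figure D2:**
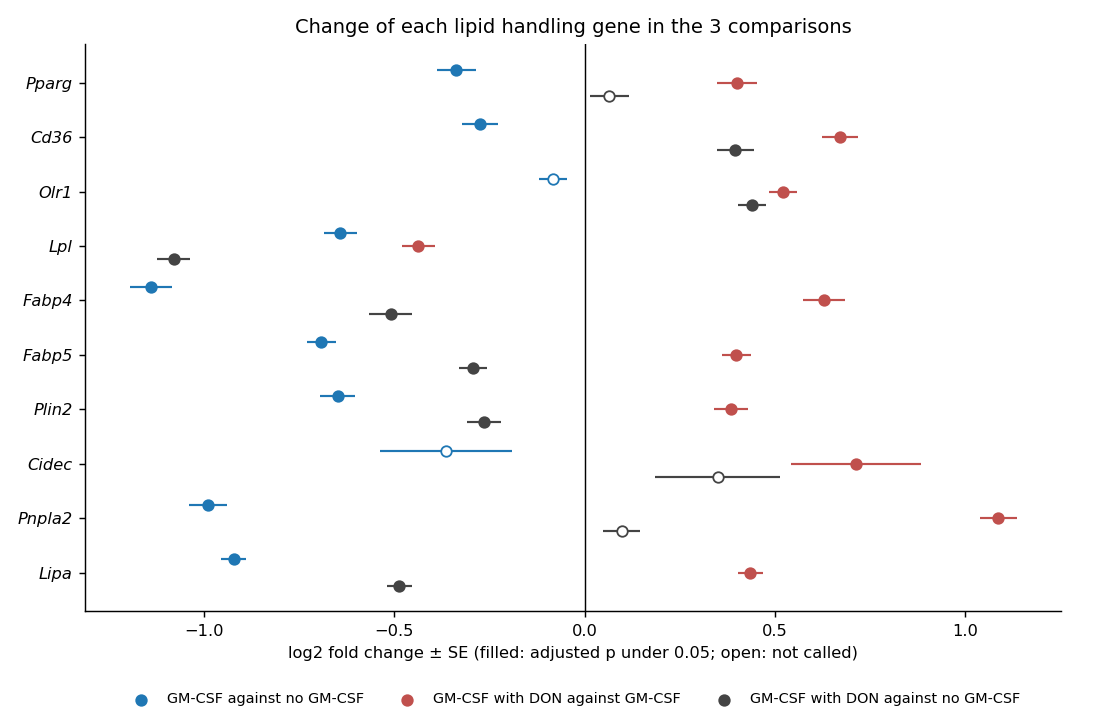
Log2 fold change ± SE (x axis) of each gene (y axis) in edgeR's test for the 3 comparisons, filled where the adjusted p was under 0.05 and open where it was not. Values for DON added to GM-CSF lay between -0.44 (Lpl) and 1.09 (Pnpla2), and those for GM-CSF were all below 0, with Olr1 and Cidec not called.

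The ratio of Plin2 to Pnpla2, droplet coat over droplet lipase, was chosen after the values were seen and is a description. As FPKM it was 2.98 and 2.87 with GM-CSF and DON, 4.47 and 4.87 with GM-CSF and 3.65 and 3.98 without GM-CSF. The GM-CSF libraries were highest and those with DON lowest, with no overlap between groups.

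**Figure D3:**
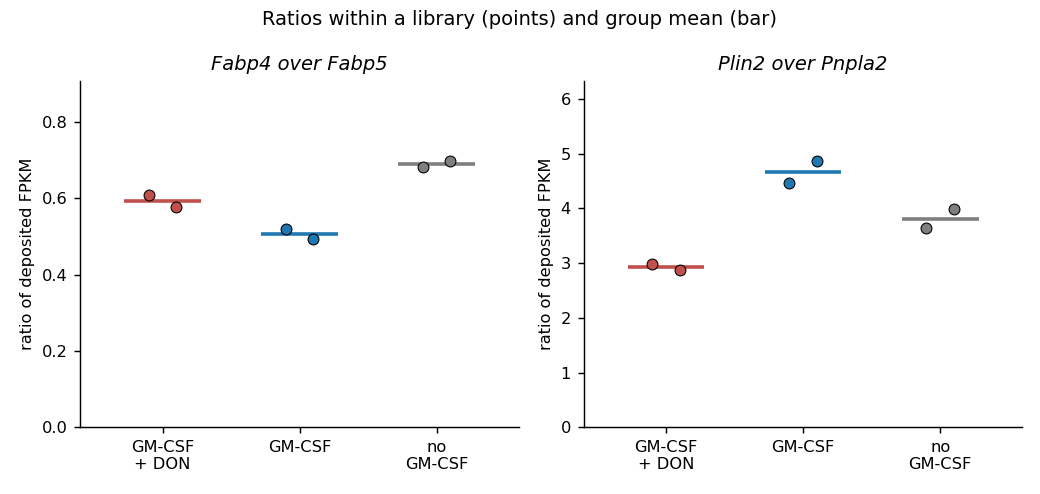
Ratios within a library of the deposited FPKM values (linear axes from 0), Fabp4 over Fabp5 on the left and Plin2 over Pnpla2 on the right, with a point for each library and a bar for the mean of each group. The Fabp4 ratio was lowest with GM-CSF alone (0.507 ± 0.0181), and the Plin2 ratio was highest there (4.67 ± 0.279).

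Levels can be compared between genes only per length, for which the authors' FPKM values were used. Fabp5 was the highest of the 10 in every group, at 1856 ± 31.6 FPKM with GM-CSF and DON, 1413 ± 19.5 FPKM with GM-CSF and 2289 ± 75.0 FPKM without GM-CSF, ranks 38, 50 and 33 among the 12340 tested genes. Lpl was at 819 ± 41.9 FPKM (rank 125) with GM-CSF and DON, 1121 ± 47.6 FPKM (rank 78) with GM-CSF and 1739.6 ± 32.8 FPKM (rank 45) without GM-CSF. Fabp4, at 1102 ± 59.8 FPKM, and Lipa, at 940.5 ± 13.9 FPKM, were above Lpl with GM-CSF and DON. Without GM-CSF both were below Lpl, Fabp4 at 1579 ± 76.1 FPKM and Lipa at 1343 and 1304 FPKM. Pparg itself was far lower, at 83.5 ± 0.912 FPKM with GM-CSF and DON, 63.8 ± 0.311 FPKM with GM-CSF and 80.1 ± 4.77 FPKM without GM-CSF. Cidec, at 3.92 ± 0.261, 2.49 ± 0.0888 and 3.32 ± 1.27 FPKM in the same order of groups, was the lowest. The gene length implied by count over FPKM varied between libraries by 10.1% for Cidec (coefficient of variation) and by 1.12% to 3.08% for the other 9, so FPKM and CPM of Cidec do not move in step. Together the 10 genes took 1.10 ± 0.0177% of all counts with GM-CSF and DON, 1.01 ± 0.0238% with GM-CSF and 1.49 ± 0.00283% without GM-CSF.

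**Figure D4:**
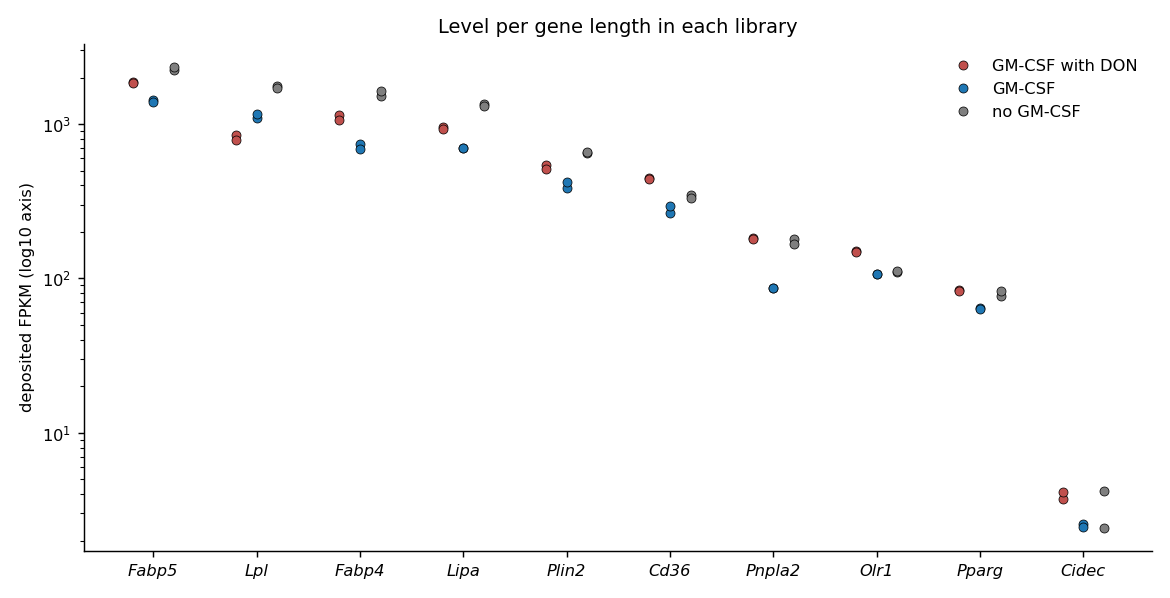
The authors' FPKM values (log10 axis) of the 10 genes in each library, ordered by the mean without GM-CSF. Fabp5 was highest and Cidec lowest in every group, and Lpl without GM-CSF (1739.6 ± 32.8 FPKM) stood above its values in the other groups.

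Genes with the pattern most like that of Pparg were sought among 8163 others with a mean of at least 10 CPM, by the root mean square difference of centred log2 CPM over the 6 libraries. The 5 nearest were Poc1b (0.0232), Rabep2 (0.0251), Zfand2a (0.0267), Man1a (0.0293) and Vps26b (0.0321). Of the other lipid genes Olr1 (0.1585, rank 1466), Plin2 (0.1587, rank 1474) and Cd36 (0.1594, rank 1485) were nearest to Pparg. Lpl, of the 8 ranked, was farthest, at 0.488, rank 7116. This measure depends on the size of a change as well as its direction. For Fabp4 the 5 nearest were Dok1 (0.0543), H2-D1 (0.0609), Rhoc (0.0612), Aldh2 (0.0690) and Tesk1 (0.0691). Lipa was rank 36 for likeness to Fabp4 at 0.112, and Fabp5 rank 157 at 0.186. Pparg was rank 1035 at 0.341, and Olr1 was the farthest of the lipid genes ranked, at 0.477, rank 3358. Cidec was below the CPM minimum and was not ranked.

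Around these 10, 6 lists of other lipid genes were counted, to be read beside the shares of all tested genes called, 56.8% with GM-CSF (27.5% higher, 29.3% lower) and 57.6% with DON (28.8% higher, 28.8% lower), and the medians of all tested genes, -0.018 and 0.010. Of 19 tested partners and coregulators of PPARg, 5 rose and 8 fell with GM-CSF (median log2 fold change -0.10, 68.4% called), and 7 rose and 6 fell with DON (0.11, 68.4% called). Leaving out GM-CSF replicate 1 left 5 called lower with GM-CSF, and leaving out no GM-CSF replicate 1 left 4. Rxra, the partner receptor of PPARg, rose with GM-CSF and fell with DON, with mean levels of 211 CPM with GM-CSF and DON, 287 with GM-CSF and 199.8 without GM-CSF. Its log2 fold changes were 0.52 ± 0.044 with GM-CSF (adjusted p = 4.76e-06) and -0.44 ± 0.044 with DON (adjusted p = 1.87e-05). The coactivator Ppargc1b had the highest rise with GM-CSF (1.33 ± 0.13) and the lowest value with DON (-1.40 ± 0.13). The LXR alpha gene Nr1h3 fell with GM-CSF (-1.80 ± 0.088) and was not called with DON (-0.11 ± 0.094, adjusted p = 0.334). Cebpb rose in both (0.39 ± 0.050 and 0.31 ± 0.050). Ppard rose with GM-CSF (0.27 ± 0.046) and fell with DON (-0.17 ± 0.046), a call lost with upper quartile scaling (-0.09, adjusted p = 0.124). The call with DON was also lost with replicate 1 of the DON group left out (-0.15) and with GM-CSF replicate 1 left out (-0.14).

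Of 17 tested genes of fatty acid uptake, activation and binding, 4 rose and 7 fell with GM-CSF (median 0.027, 64.7% called), and 2 rose and 7 fell with DON (-0.10, 52.9% called). Among them Fabp7, a relative of Fabp4 and Fabp5, was at 0.964 CPM with GM-CSF and DON, 0.717 with GM-CSF and 13.7 without GM-CSF, and Fabp1 at 4.77 CPM with GM-CSF and DON, 8.26 with GM-CSF and 1.68 without GM-CSF. Of 8 other scavenger receptor genes, 1 rose (Msr1, 0.79 ± 0.043) and 7 fell with GM-CSF (median -0.68, 100% called), and 2 rose and 4 fell with DON (-0.60, 75% called). Marco, which takes up particles and modified lipoproteins, was at 36.7 CPM with GM-CSF and DON, 83.7 with GM-CSF and 103 without GM-CSF and fell with DON (log2 fold change -1.19 ± 0.10, adjusted p = 7.52e-06).

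Of 20 genes of ester synthesis and the droplet coat, 6 rose and 11 fell with GM-CSF (median -0.26, 85% called), and 10 rose and 5 fell with DON (0.27, 75% called). Cideb, a relative of Cidec, fell with GM-CSF (-1.27 ± 0.14) and rose with DON (1.45 ± 0.14), and Soat2, which makes cholesteryl esters, rose in both (1.57 ± 0.20 and 1.69 ± 0.15). Of 13 genes of lipolysis, 1 rose and 6 fell with GM-CSF (median -0.25, 53.8% called), and 8 rose and 0 fell with DON (0.38, 61.5% called). G0s2, an inhibitor of the Pnpla2 enzyme, was the highest riser of that list with DON (1.94 ± 0.28), at a low 2.82 CPM with GM-CSF and DON, 0.734 with GM-CSF and 0.874 without GM-CSF. Of 15 genes of lysosomal lipid and efflux, 1 rose and 11 fell with GM-CSF (median -0.38, 80% called), and 9 rose and 0 fell with DON (0.39, 60% called). The riser with GM-CSF was the cholesterol exporter Abcg1 (0.71 ± 0.039), and the lysosomal channel gene Mcoln1 had the highest rise with DON (1.21 ± 0.044).

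**Figure D5:**
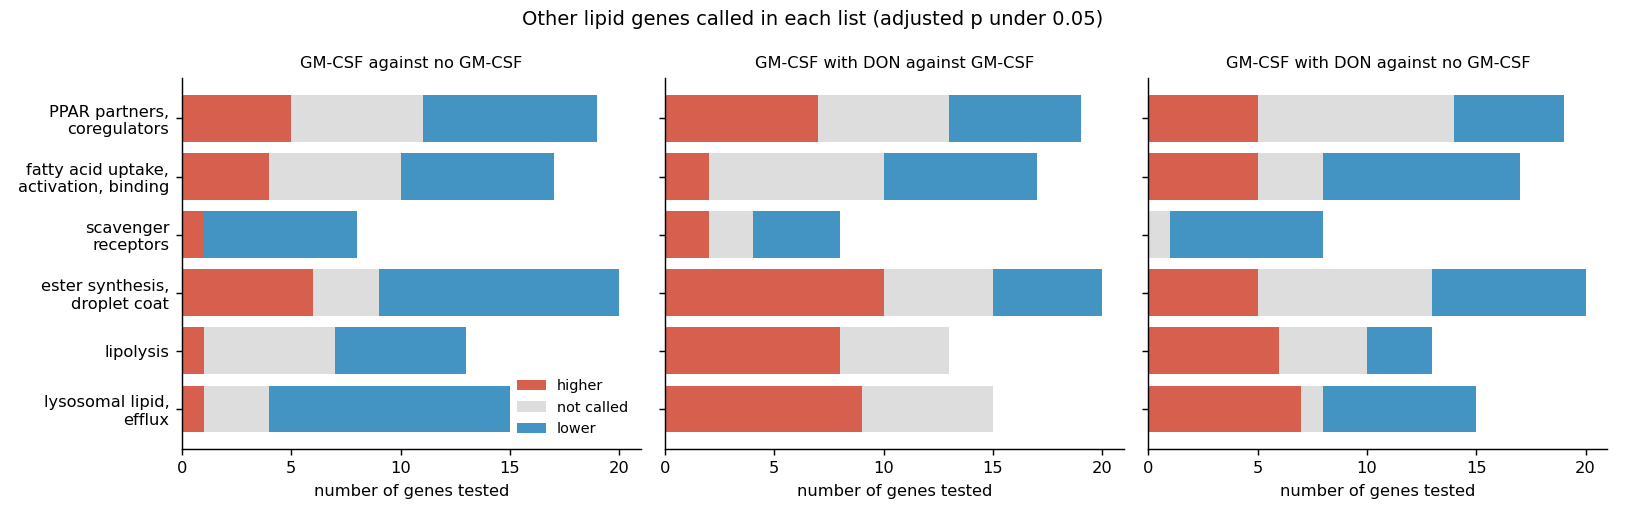
Number of genes (x axis) of each list of other lipid genes that were called higher, not called or called lower in the 3 comparisons (edgeR, adjusted p under 0.05). With DON against GM-CSF, 0 of 13 lipolysis genes and 0 of 15 genes of lysosomal lipid and efflux were called lower, where 28.8% of all tested genes were. In the other lists 6 of 19 PPARg partners, 7 of 17 fatty acid uptake genes, 4 of 8 scavenger receptors and 5 of 20 ester synthesis and droplet genes were.

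For GM-CSF plus DON against no GM-CSF, the lists gave 5 higher and 5 lower of 19 for PPARg partners, 5 higher and 9 lower of 17 for fatty acid uptake, 0 higher and 7 lower of 8 for scavenger receptors, 5 higher and 7 lower of 20 for ester synthesis and droplets, 6 higher and 3 lower of 13 for lipolysis, and 7 higher and 7 lower of 15 for lysosomal lipid and efflux. Of all tested genes 27.2% were called higher and 28.4% lower. The shares higher and lower were 29.4% and 52.9% for fatty acid uptake and 0% and 87.5% for scavenger receptors. They were 46.2% and 23.1% for lipolysis and 46.7% each way for lysosomal lipid and efflux. Nearer the shares of all tested genes were ester synthesis and droplets, at 25% and 35%, and PPARg partners, at 26.3% each way. Of these partners 2 were called higher with replicate 2 of the DON group left out and 3 with replicate 2 of the no GM-CSF group left out, and 3 were called lower with replicate 1 of the DON group left out.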

How the data were processed

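Total RNA of the 6 libraries was sequenced on an Illumina HiSeq, per the labels' protocols. Build mm10 (GRCm38), DESeq2 1.28.1, Subread 1.4.6, featureCounts and STAR 2.6.0a are named, without roles, per the submitters' processing notes. The sources used here do not give the annotation, strand setting or gene filter. The authors deposited whole-number counts and FPKM values for 16840 gene symbols. Groups and replicate numbers came from the sample titles.

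Counts were analysed with edgeR 4.0.16 in R 4.3.3: filterByExpr (minimum count 10), TMM scaling, 1 coefficient per group over all 6 libraries, and its two-sided quasi-likelihood test, with p-values adjusted by Benjamini and Hochberg's method for 12340 genes. SE is the log2 fold change divided by the root of the test's F. The median SE over all tested genes was 0.0803 for GM-CSF, 0.0807 for DON added to GM-CSF and 0.0806 for GM-CSF plus DON against no GM-CSF. The test was checked on simulated data. Replicates differed by more than sampling noise (chi-square per degree of freedom 4.59 with GM-CSF and DON, 5.39 with GM-CSF, 8.68 without GM-CSF).

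The 10 genes, the lists (118 other genes, 101 in the table, 90 tested) and the tests were chosen with earlier results of these data known. Named genes of the lists are among the 3 highest rises and 3 lowest falls called per list and comparison whose 6-library mean reached 1 CPM, or Rxra, Nr1h3, Ppard and Cebpb; Marco, Msr1 and G0s2 are among these. Near-identical transcripts were sought with BLAST 2.17.0 (at least 90% identity over 200 bases, GENCODE transcripts of GRCm38), and no other gene's exons overlapped those of the 10. Alternatives were DESeq2 1.42.0, limma 3.58.1 on log2(FPKM + 0.1), other scalings, no filter, 2-group fits, a replicate block and each library left out.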

Additional observations from a re-analysis of the deposited data

How the results depend on the processing

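Of 330 log2 fold changes of the 10 genes under the alternatives, 324 kept their direction and their side of the threshold, 5 became called and 1 was no longer called. Those 6 values are of Cidec (3), Pnpla2 (2) and Olr1 (1), given with these genes above, and the cause was not tested. None reversed. The number of genes called without 1 library was 5688 to 6403 for GM-CSF, 5912 to 6227 for DON added to GM-CSF and 5739 to 6143 for GM-CSF plus DON against no GM-CSF. Where a group is left with 1 library, that library is assumed to vary like the other groups.

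With the replicate number as a block, 6708, 6882 and 6542 genes were called in the same order of comparisons, and the 10 genes gave the same numbers, 8 lower with GM-CSF, 9 higher and 1 lower with DON, 2 higher and 5 lower against no GM-CSF. The replicate numbers are not stated to pair libraries. The correlation of replicate differences across 8164 genes was -0.0470, 0.0620 and -0.298.

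Alternatives for the other lipid lists were added after seeing the data. Of 396 list counts 12 moved by over 1.5 times, 11 of them for PPARg partners. Ratios taken from counts in place of FPKM differ by gene length: Fabp4 to Fabp5 was then 0.353 with GM-CSF and DON, 0.301 with GM-CSF and 0.410 without. Cidec had the fewest counts of the 10, with an SE of 0.17 for DON against at most 0.056 for the others.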
